A study of Mus musculus with 6 samples.

Results

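The adult ventricular sarcomere genes are 10 genes that encode working parts of the contractile unit of heart muscle, namely Myl2, Myl3, Tnnt2, Tnni3, Tnnc1, Tpm1, Actc1, Mybpc3, Ttn and Actn2. They were taken by name from a table of 30914 genes, each name matched 1 row, and all 10 passed the filter on low values. Heart RNA came from 3 mice given angiotensin II alone (Ang II group) and 3 given angiotensin II and tectochrysin (Ang II + Tec group). All were wild-type (WT) male C57BL/6J mice, 8 weeks old, and all received angiotensin II at 1 μg/kg/min from an osmotic pump for 4 weeks, a treatment that raises blood pressure and makes the heart grow. The Ang II + Tec group also received the flavonoid tectochrysin (Tec) at 5 mg/kg in the last 2 weeks. None of the 6 libraries came from a heart without Ang II, so every value below is a level under Ang II, with or without Tec. Levels are FPKM, fragments per kilobase of transcript and per unit of sequencing depth. Below, "with Tec" stands for the Ang II + Tec group and "without Tec" for the Ang II group, and values of a group follow the replicate numbers 1, 2 and 3 of the labels.

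In the sarcomere, thick filaments of myosin slide along thin filaments of actin. Tropomyosin and the troponin complex lie on the thin filament and let myosin bind only when troponin C holds calcium. Myosin light chains brace the lever arm of the motor, myosin-binding protein C sits along the thick filament, titin spans from the Z-disc to the M-band as a molecular spring, and alpha-actinin ties the actin filaments together at the Z-disc. Several of these proteins have isoforms typical of the atrium, of the fetal heart or of skeletal muscle.

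The cardiac muscle origin of the RNA was plain in the deposited values. Apart from Ttn, the 10 genes stood at 195 FPKM or more in each library. Mb, another cardiomyocyte gene, which encodes myoglobin, stood between 4722 and 6502 FPKM. Some other cardiomyocyte genes were far lower, such as Ryr2 at 14.4 to 21.5 FPKM and Slc8a1 at 8.6 to 17.9 FPKM. The libraries differed in a second respect. Atrial marker genes other than Bmp10 were high in Ang II replicates 1 and 2 and in Ang II + Tec replicate 2, and low in the other 3 libraries. Bmp10 exceeded 1.11 FPKM only in Ang II + Tec replicate 2, at 23.9 FPKM. Myl7, the atrial regulatory light chain, was at 419, 332 and 0 FPKM without Tec and at 0, 1039.78 and 1.58 FPKM with Tec. The 7 atrial markers summed to 6306, 10381 and 258 FPKM without Tec and to 908, 5227 and 135 FPKM with Tec, most of it Nppa (906 of the 908 FPKM in Ang II + Tec replicate 1), a gene that the stressed ventricle also expresses. The other 6 summed to 738, 925 and 2.30 FPKM without Tec and to 2.39, 1738 and 9.61 FPKM with Tec. The labels name the tissue only as heart. Results below are therefore given with all 6 libraries and, where they move, for the 3 libraries with low and the 3 with high atrial markers. The low-marker set has 1 Ang II library and the high-marker set 1 Ang II + Tec library, and each lone library was assumed to vary like the other group.

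**Figure D1:**
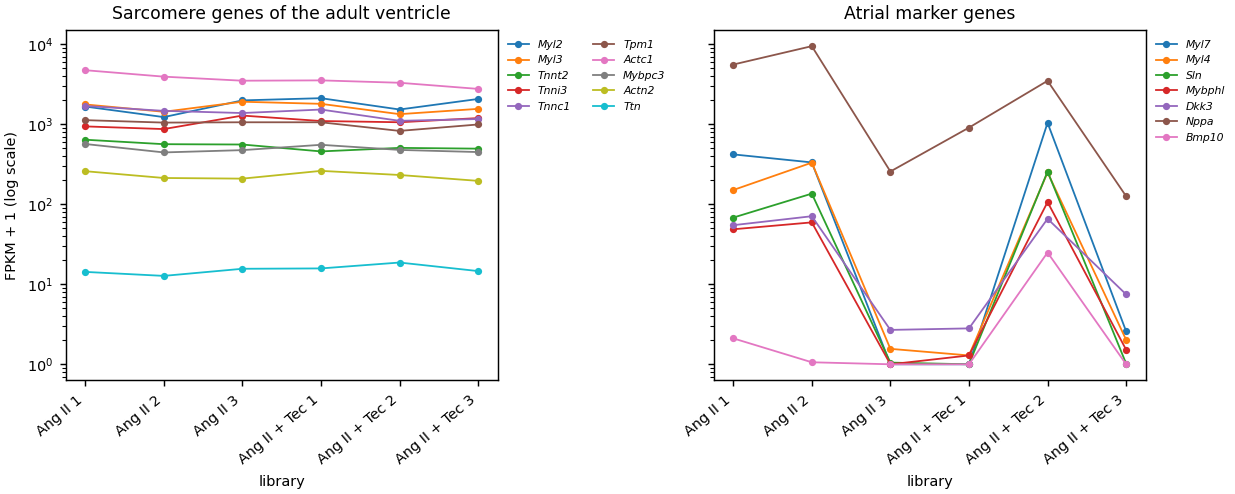
FPKM + 1 (log scale) of the 10 adult ventricular sarcomere genes (left) and of 7 atrial marker genes (right) in each of the 6 libraries, with 1 line for each gene. The sarcomere lines are nearly flat. The atrial lines other than Bmp10 fall together in Ang II replicate 3 and in Ang II + Tec replicates 1 and 3, Myl7 from as much as 1039.78 FPKM to 0. Bmp10 exceeds 1.11 FPKM only in Ang II + Tec replicate 2, at 23.9 FPKM.

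Some of the 10 genes kept the same rank in every library. Actc1, the cardiac alpha-actin of the thin filament, was highest in 6 of 6 libraries, with a mean of 3626 FPKM, and Ttn, which encodes titin, was lowest in 6 of 6, with a mean of 14.3 FPKM. FPKM are already divided by transcript length, and the longest Ttn transcript in GENCODE M21 has 106824 bases against 721 for Tnnc1. The RNA was poly(A)-selected per the labels, and how evenly reads covered so long a transcript cannot be seen from FPKM. Below Actc1 came Myl2 (1764 FPKM), Myl3 (1633), Tnnc1 (1388), Tnni3 (1073), Tpm1 (1017), Tnnt2 (536), Mybpc3 (493) and Actn2 (227) as means over the 6 libraries. Of the 9 neighbouring pairs in this order, 4 kept the same order in every library, namely Actc1 above Myl2, Tpm1 above Tnnt2, Mybpc3 above Actn2 and Actn2 above Ttn. The other 5 pairs changed places in at least 1 library. Myl2 was above Myl3 in 4 of 6 libraries (mean log2 difference 0.098, SD 0.23), and Tnni3 was above Tpm1 in 4 of 6 (0.071, SD 0.28), so neither difference exceeded its spread. The pairs were set by the means of the same libraries, and the order is given as a description.

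The promoters were examined for letters that the 10 genes share. RefSeq windows on GRCm38.p6 were found for all 10 genes, and the 250 bases before each start were searched. The MEF2 motif, searched on both strands, was in the windows of Mybpc3 and Ttn, against 2.92% of all 32851 windows, and the CArG box of serum response factor in those of Myl3 and Actc1, against 1.47%. The windows of Myl3 and Myl2 are far from the gene starts of the deposited table, 21817 bases away for Myl3 and 7762 and 8227 bases for Myl2. The distance was 673 bases for Actc1, 266 for Tnni3 and 20 and 635 for Tnnt2. A gene counted if any of its windows matched, while the percentages are of single windows. The Myl2 windows held none of the searched motifs. The motif CATTCC, on both strands, was in 4 of the 10 genes (Myl3, Tnnt2, Tnnc1 and Tpm1), against 12.6% of all windows, the motif GATAAG, on both strands, in Mybpc3 alone, against 6.55%, and TATAAA on the strand of the gene in none, against 7.59%. The 100 bases before the start are shown for Mybpc3, Tnnc1 and Ttn, whose RefSeq start is the start in the deposited table. They read 5′ to 3′ on the strand of the gene, at chr2:91118044-91118143 on the plus strand, chr14:31208212-31208311 on the plus strand and chr2:76982548-76982647 on the minus strand. Capitals mark the matches to the MEF2 motif and to GATAAG in Mybpc3 and to CATTCC, read on the other strand, in Tnnc1. The MEF2 match of Ttn starts farther upstream than the bases shown.
Mybpc3: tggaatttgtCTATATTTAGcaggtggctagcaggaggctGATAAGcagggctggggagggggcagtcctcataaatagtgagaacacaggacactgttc
Tnnc1: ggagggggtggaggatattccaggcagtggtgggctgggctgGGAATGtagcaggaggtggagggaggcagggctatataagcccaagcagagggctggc
Ttn: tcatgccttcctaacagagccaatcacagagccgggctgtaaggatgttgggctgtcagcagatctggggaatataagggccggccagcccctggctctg
A match describes the letters of the window and was not tied to any of the measured differences.

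The comparison of both groups asked how the heart transcriptome differed once Tec was added. Of the 10 sarcomere genes, 0 were differentially expressed, which required a limma adjusted p-value under 0.05 (Benjamini-Hochberg over 13089 tested genes) and a change by 1 or more, in either direction, on the scale of log2(FPKM + 1). Among all tested genes 0.16% met this definition, 0.084% higher and 0.0764% lower with Tec. At an unadjusted limma p-value under 0.05 the count was 0 of 10 as well, against 18.6% of all tested genes. In 1 of the 10 genes, Tnnt2, the libraries of both groups did not overlap, against 21.8% of all tested genes. All 10 of the 95% intervals of the log2 fold change included 0, and their bounds ran from -0.74 to 0.75, so on the deposited scale a change of 1 on the log2 scale lay outside each of them. It lay inside the intervals of Myl2 and Tnni3 after rescaling by the median of ratios (highest bound 1.2975) and, as a fall, inside those of Actc1 and Tnnc1 after quantile normalization (lowest bound -1.24). The labels number 3 hearts in each group. The limma p-values rest on the spread between these hearts, moderated for each gene toward a trend over all tested genes. In bulk heart RNA fewer cardiomyocytes and less RNA per cardiomyocyte cannot be told apart.

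The scale of the libraries sets how these differences read. Over all tested genes, the median log2 fold change was -0.17, with 80.0% of them lower with Tec, and that of the 10 genes was -0.063, with 4 higher and 6 lower. Rescaling by the median of ratios moved the median of all genes to 0.0087 and that of the 10 genes to 0.18, with 7 higher. Relative to all tested genes the 10 genes thus lay 0.10 higher with the deposited FPKM and 0.17 higher after rescaling. After quantile normalization the order turned, and the 10 genes lay 0.24 lower than all genes (median -0.22 against 0.020). Within the 3 libraries with low atrial markers the median of the 10 genes was -0.049 and that of all genes -0.078, and within the 3 with high atrial markers they were -0.16 and -0.13.

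**Figure D2:**
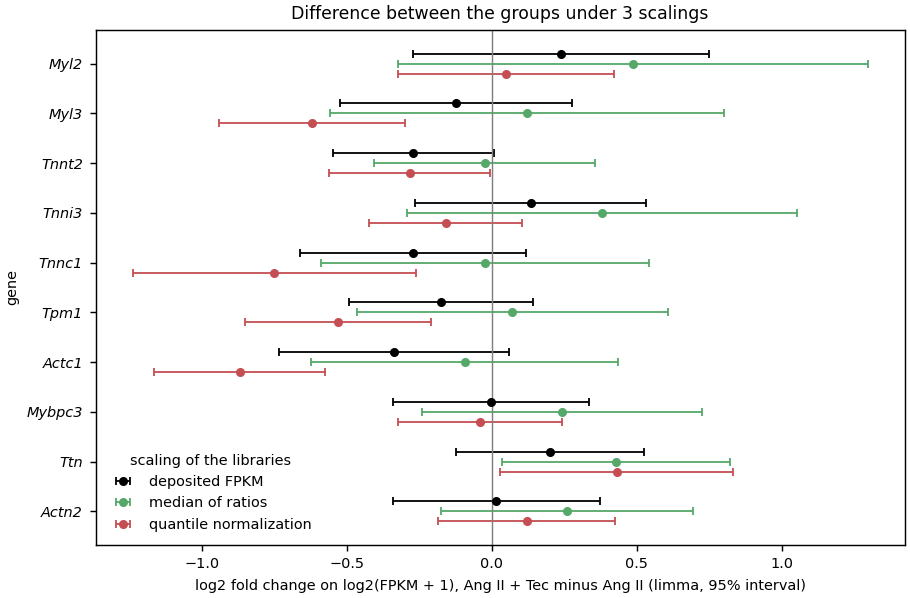
Log2 fold change of each of the 10 genes on log2(FPKM + 1), Ang II + Tec minus Ang II, with limma 95% intervals, for the deposited FPKM (black), after rescaling by the median of ratios (green) and after quantile normalization (red). With the deposited FPKM each interval covers 0, and the bounds stay between -0.74 and 0.75.

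Among the genes of the thin filament, Actc1 (ENSMUSG00000068614, chromosome 2 from 114047282 to 114053548 in the deposited table, whose positions mostly match GRCm38) had 4734, 3932 and 3498 FPKM without Tec and 3532, 3297 and 2763 FPKM with Tec. The groups overlapped by a narrow margin, since Ang II replicate 3 lay just below Ang II + Tec replicate 1. The means were 4055 ± 627 and 3197 ± 394 FPKM (SD, n = 3 each), a log2 fold change of -0.34 (standard error, SE, 0.17, limma adjusted p-value 0.308), the most negative of the 10. The log2 fold change was -0.16 in the 3 libraries with low atrial markers and -0.39 in the 3 with high ones. After rescaling by the median of ratios it was -0.093, and after quantile normalization -0.87 (limma adjusted p-value 0.0952).

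Actc1 and its partners Acta1 (skeletal alpha-actin, re-expressed in the growing heart) and Acta2 (smooth muscle alpha-actin) are alike in sequence, and the start of their coding regions is shown because reads of near-identical genes could be confused. The first 60 coding bases in the GENCODE M21 transcripts are given 5′ to 3′, with the bases that differ from Actc1 in capitals.
Actc1: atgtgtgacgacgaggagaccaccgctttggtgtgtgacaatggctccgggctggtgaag
Acta1: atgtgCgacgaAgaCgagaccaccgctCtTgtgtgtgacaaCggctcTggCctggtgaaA
Acta2: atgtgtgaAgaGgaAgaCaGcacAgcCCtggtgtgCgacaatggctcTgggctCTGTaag
Acta1 differed from Actc1 at 9 of these bases and Acta2 at 14, and over the 1134 coding bases the identity with Actc1 was 86.2% and 82.5%. None of the 50-base stretches of the Actc1 transcripts occurred in a transcript of another gene. The share of such stretches was 0 for 7 of the 10 genes, 0.0526% for Actn2 and 0.123% for Tnnt2. It was highest for Tnni3, at 1.69%, all of it shared with Dnaaf3. Only exact matches among annotated transcripts were counted, so confusion of reads that align with mismatches was not examined. Myl2, Myl3 and Actc1 each overlap a gene on the other strand (Ccdc63, Pth1r and A530058N18Rik), and no source used here states that reads were counted by strand.

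Tnnt2 (ENSMUSG00000026414, chromosome 1 from 135836354 to 135852260), the subunit that anchors troponin to tropomyosin, had 639.5, 562 and 557 FPKM without Tec and 456, 505 and 494 FPKM with Tec. Every treated library lay below every Ang II library, and the direction of this separation, lower with Tec, was found in 18.9% of all tested genes. The log2 fold change was -0.27 (SE 0.12, 95% interval -0.55 to 0.0066, limma adjusted p-value 0.274). It was -0.23 within the 3 libraries with low atrial markers and -0.25 within the 3 with high ones, but -0.025 after rescaling by the median of ratios.

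Tnnc1 (ENSMUSG00000091898, chromosome 14 from 31208312 to 31211729), the calcium-binding subunit, had 1691, 1469 and 1379 FPKM without Tec and 1525, 1102 and 1160.45 FPKM with Tec. Its groups overlapped through Ang II + Tec replicate 1, and the log2 fold change was -0.27 (SE 0.17, limma adjusted p-value 0.376). The difference was -0.052 in the 3 libraries with low atrial markers and -0.52 in the 3 with high ones, and it was -0.025 with the median of ratios but -0.75 with quantile normalization (limma adjusted p-value 0.236). Tnni3 (ENSMUSG00000035458, chromosome 7 from 4518305 to 4522794), the inhibitory subunit of the adult heart, had 939, 869 and 1282 FPKM without Tec and 1096, 1058 and 1192 FPKM with Tec. Its highest and its lowest values were both in the Ang II group, and its log2 fold change of 0.13 (SE 0.17, limma adjusted p-value 0.644) turned to -0.16 after quantile normalization and to -0.17 in the 3 libraries with low atrial markers.

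Tpm1 (ENSMUSG00000032366, chromosome 9 from 67022590 to 67049267), alpha-tropomyosin, had 1124, 1047 and 1057 FPKM without Tec and 1057, 824 and 992 FPKM with Tec. Ang II + Tec replicate 2 was the lowest, and replicate 1 of that group lay inside the Ang II range. The log2 fold change of -0.18 (SE 0.14, limma adjusted p-value 0.456) became 0.071 with the median of ratios but -0.53 with quantile normalization (limma adjusted p-value 0.224). It was -0.046 in the libraries with low atrial markers and -0.40 in those with high ones.

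Of the light chains, Myl2 (ENSMUSG00000013936, chromosome 5 from 122100951 to 122113472), the ventricular regulatory light chain, had 1663, 1227 and 1985 FPKM without Tec and 2115, 1527 and 2069 FPKM with Tec. The 3 lowest values were those of the 3 libraries with high atrial markers, 2 without and 1 with Tec. The log2 fold change was 0.24 (SE 0.22, limma adjusted p-value 0.519) with all libraries, 0.14 with the atrial marker level as a covariate, 0.075 within the low-marker libraries and 0.096 within the high-marker ones. It fell to 0.052 when Ang II replicate 2 was left out and reached 0.40 when replicate 3 was left out instead. Among the 10 genes Myl2 had the largest spread within groups, with an SD of 0.31 on the log2 scale, and Tnnt2 the smallest, with 0.096.

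Myl3 (ENSMUSG00000059741, chromosome 9 from 110741861 to 110769798), the ventricular essential light chain, had 1767, 1430.06 and 1909.9 FPKM without Tec and 1798, 1335 and 1555 FPKM with Tec. The groups overlapped widely, with a log2 fold change of -0.12 (SE 0.17, limma adjusted p-value 0.668) that was 0.12 with the median of ratios but -0.62 with quantile normalization (limma adjusted p-value 0.204).

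Along the thick filament and at the Z-disc, Mybpc3 (ENSMUSG00000002100, chromosome 2 from 91118144 to 91136510), cardiac myosin-binding protein C, was at 565, 443 and 474 FPKM without Tec and at 552, 477 and 448 FPKM with Tec. The means were 494 ± 63.5 and 492 ± 53.9 FPKM (SD, n = 3 each), and the log2 fold change was -0.0030 (SE 0.14, 95% interval -0.34 to 0.34). Actn2 (ENSMUSG00000052374, chromosome 13 from 12269426 to 12340760), the alpha-actinin of cardiac and skeletal Z-discs, was at 258, 212 and 208 FPKM and at 260.35, 231 and 195 FPKM, with a log2 fold change of 0.015 (SE 0.15, 95% interval -0.34 to 0.37). Both genes had their highest value of each group in replicate 1, a number that the labels do not tie to a shared batch.

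Ttn (ENSMUSG00000051747, chromosome 2 from 76703980 to 76982547) was at 13.3, 11.7 and 14.6 FPKM without Tec and at 14.8, 17.7 and 13.6 FPKM with Tec. The highest value was in Ang II + Tec replicate 2 and the lowest in Ang II replicate 2, and the groups overlapped through Ang II replicate 3 and Ang II + Tec replicate 3. The log2 fold change of 0.20 (SE 0.14, limma adjusted p-value 0.415) was 0.43 after rescaling by the median of ratios (limma unadjusted p-value 0.0368, adjusted p-value 0.306), 0.47 in the 3 libraries with high atrial markers and -0.040 in the 3 with low ones.

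**Figure D3:**
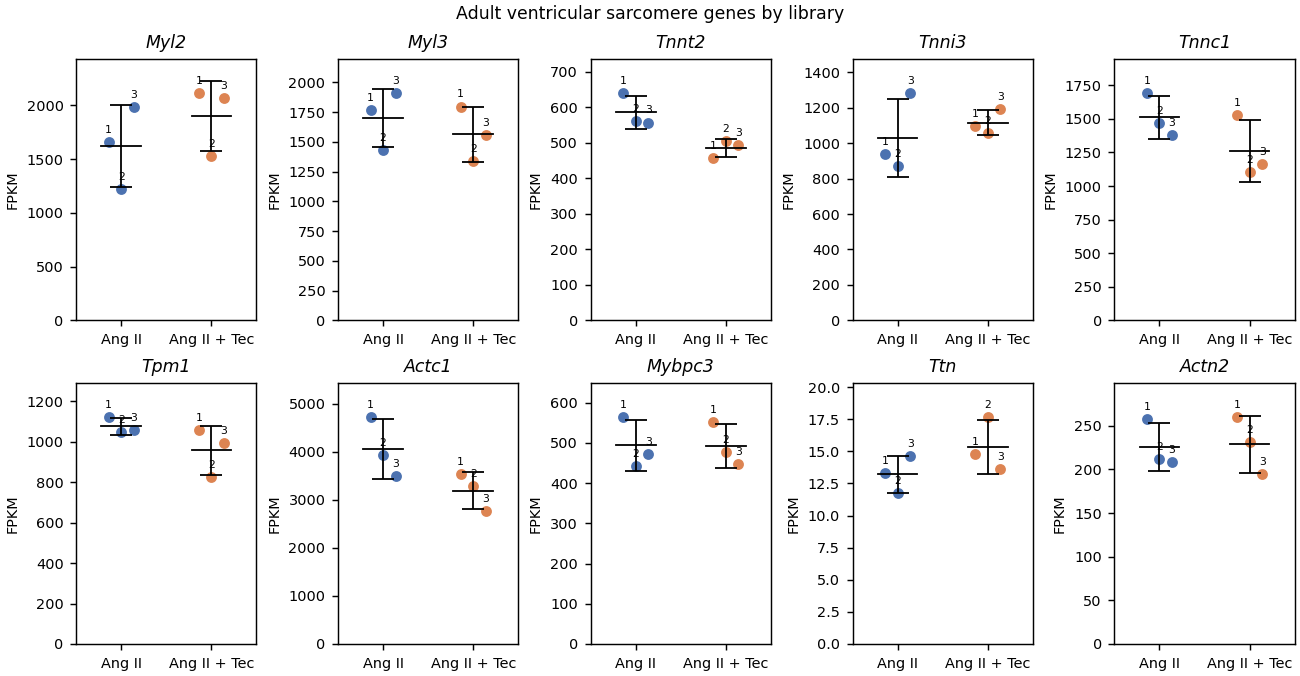
FPKM of the 10 genes in the 3 Ang II libraries (blue) and the 3 Ang II + Tec libraries (orange), numbered by replicate, with the mean and SD of each group in black. Tnnt2 is the gene whose groups do not overlap, at 557 to 639.5 FPKM against 456 to 505 FPKM.

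The 10 genes together took up a lower share of the deposited FPKM with Tec, which is given as a description. Their sum was 13394, 11203 and 12365 FPKM without Tec and 12406, 10374 and 10883 FPKM with Tec. As a share of all FPKM this was 2.59%, 2.17% and 2.09% without Tec and 1.99%, 1.78% and 1.73% with Tec, so the groups did not overlap. Transcripts of the mitochondrial genome made up 40.1% to 48.9% of the FPKM without Tec and 49.6% to 52.5% with Tec. As a share of the FPKM outside the mitochondrial genome, the 10 genes made up 4.41%, 3.62% and 4.08% without Tec and 4.09%, 3.54% and 3.64% with Tec, and these values overlapped.

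Ratios between genes of the same library do not depend on a scaling by 1 factor for each library, though quantile normalization does change them. They were examined for the 45 pairs of the 10 genes after the values had been seen. Overlap was scored on log2(FPKM + 1), where the added 1 leaves some dependence on scaling for a low gene such as Ttn. The ratios printed are of plain FPKM. The ratio did not overlap between the groups in 8 of the 45 pairs, or 17.8%. Among all 54285 pairs of genes with a mean of at least 100 FPKM, 37.8% did not overlap. The sarcomere pairs were thus not separated more often than these pairs of abundant genes. The sets are not fully alike, since the abundant genes include mitochondrial transcripts and leave out Ttn, with a mean of 14.3 FPKM. The 45 pairs share genes and libraries and are not independent.

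In 7 of these 8 pairs, a thin filament gene was lower with Tec relative to Mybpc3, Ttn or Actn2. The ratio of Actc1 to Actn2 was 18.4, 18.5 and 16.8 without Tec and 13.6, 14.3 and 14.2 with Tec, a difference of -0.35 on the log2 scale. That of Tnnc1 to Actn2 was 6.56, 6.93 and 6.63 against 5.86, 4.77 and 5.95. The gap was much narrower for Actc1 to Ttn, where Ang II replicate 3 stood at 239.3 and Ang II + Tec replicate 1 at 238.96. Actc1 was the lower partner in 3 pairs, Tnnc1 in 2 and Tnnt2 in 2, while Mybpc3 was the higher partner in 3. Over all 15 ratios of a thin filament gene to Mybpc3, Ttn or Actn2, 7 did not overlap and 8 did. Among the pairs of abundant genes, 37.8% did not overlap. The 15 ratios share genes, and this grouping was made after the values had been seen. Of the 15, 13 had a lower and 2 a higher mean log2 ratio with Tec, and no share over other pairs was computed. The 2 higher ones were Tnni3 to Mybpc3 (0.14) and Tnni3 to Actn2 (0.12).

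The remaining pair was made of both light chains. The ratio of Myl2 to Myl3 was 0.941, 0.858 and 1.04 without Tec and 1.18, 1.14 and 1.33 with Tec, a difference of 0.36 on the log2 scale. Without Tec the ratio was highest in replicate 3, which had low atrial markers, and with Tec it was lowest in replicate 2, which had high ones. The lowest treated value was 1.14 and the highest Ang II value 1.04. The part of the atrial marker level in this ratio was not tested.

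**Figure D4:**
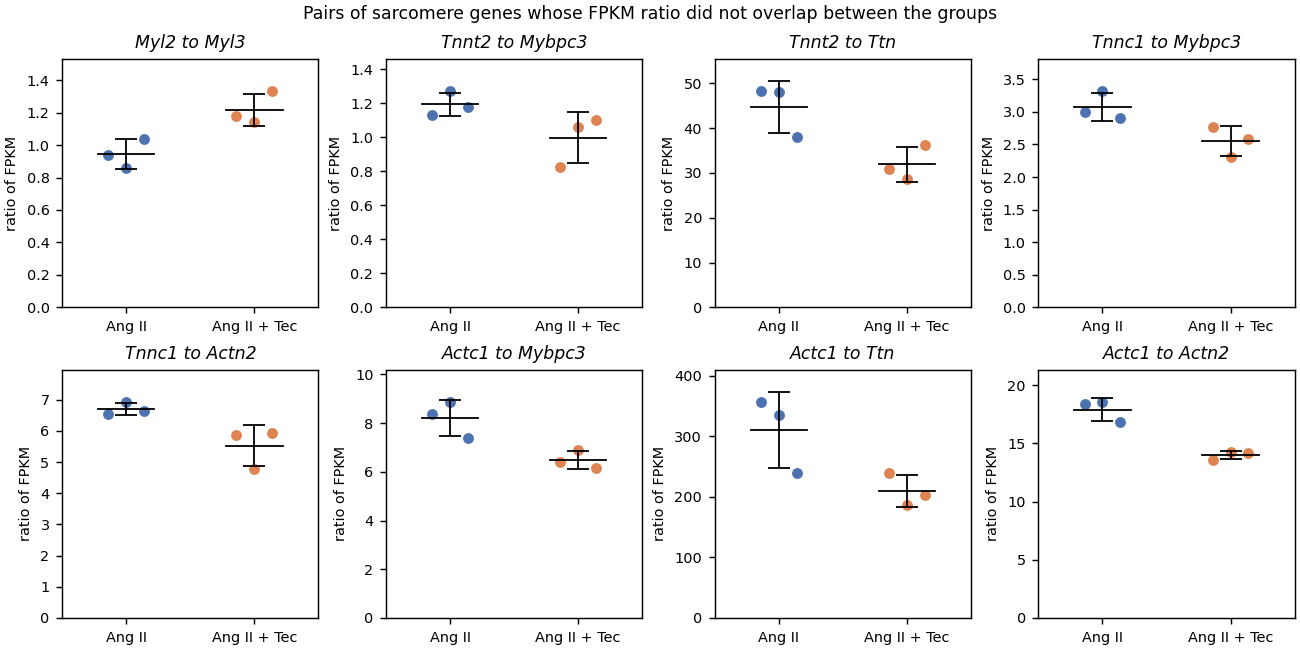
Ratio of FPKM within a library for the 8 pairs of sarcomere genes whose ratios did not overlap between the Ang II (blue) and Ang II + Tec (orange) groups, with the mean and SD in black. The ratio of Myl2 to Myl3 is at 0.858 to 1.04 against 1.14 to 1.33, and that of Actc1 to Actn2 at 16.8 to 18.5 against 13.6 to 14.3.

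The adult cardiac genes were also set beside related isoforms from other muscle types. Acta1 was at 196, 265 and 137 FPKM without Tec and at 627, 195 and 89.2 FPKM with Tec. The highest and the lowest library were both treated, so the ratio of Actc1 to Acta1 ran from 5.64 to 31.0 with Tec and from 14.9 to 25.4 in the Ang II group (difference -0.54 on the log2 scale, exact permutation p = 0.7, adjusted p-value 0.9 over 8 isoform pairs). With 3 mice against 3, the smallest p-value of this two-sided test is 0.1.

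The light chains gave the widest contrast with their atrial partners. The ratio of Myl3 to Myl4, the atrial essential light chain, was 11.8, 4.33 and 3410.5 without Tec and 6198, 5.37 and 1525 with Tec. The 3 high values and the 3 low ones divided by atrial markers, with libraries of both groups on either side (exact permutation p = 0.7 between the treatment groups). The ratio of Myl2 to Myl7 had no value in the libraries where Myl7 was listed at 0, and its exact permutation p-value on the log2(FPKM + 1) scale was 0.9.

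The skeletal troponins Tnni1 and Tnnt1 stayed far below the cardiac ones. The fast skeletal Tnnt3 was at 6.91, 42.4 and 0.3 FPKM without Tec and at 1.41, 1.04 and 1.31 FPKM with Tec. Tnnt2 stood at 456 to 639.5 FPKM, and Tnnt3 was named after its values had been seen. Tnni1, the slow skeletal and fetal troponin I, was at 0 to 0.46 FPKM, below the limit for testing, beside Tnni3 at 869 to 1282 FPKM. Tnnt1 was at 3.41 to 8.84 FPKM, and the ratio of Tnnt2 to Tnnt1 was 63.0 to 171 without Tec and 101 to 142 with Tec (exact permutation p = 0.9). Tpm2, beta-tropomyosin, was at 12.6, 23.1 and 6.47 FPKM without Tec and at 5.21, 22.4 and 5.99 FPKM with Tec, highest in the 3 libraries with high atrial markers. The ratio of Tpm1 to Tpm2 was lowest there, at 89.0, 45.3 and 36.8, against 163 to 203 in the other libraries, and did not differ by treatment beyond its spread (exact permutation p = 0.8). The ratio of Actn2 to the non-muscle Actn1 ran from 17.9 to 77.3 without Tec and from 35.8 to 117 with Tec (exact permutation p = 0.4).

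Of the 18 partner isoforms, 14 were tested and none was differentially expressed with limma, while 2 were higher and 1 was lower at an unadjusted p-value under 0.05, against 2.09% and 16.5% of all tested genes. The higher ones were Mybpc2 (0.80, SE 0.20) and Tpm3 (0.59, SE 0.15), and the lower one was Tpm4 (-0.74, SE 0.25), with limma adjusted p-values of 0.2005, 0.201 and 0.229. Tpm3 was at 3.29, 4.08 and 5.00 FPKM without Tec and at 6.10, 7.46 and 6.42 FPKM with Tec. Tpm3 and Tpm4 were named after their values had been seen. At the ends of the list, Tnni2 had a log2 fold change of 0.78 (SE 0.57), Myl4 of -2.30 (SE 2.54) and Myl1 of -2.02 (SE 0.95).

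The other sarcomere genes, a list of 28 with myosin heavy chains, M-band, Z-disc and assembly factors, had log2 fold changes from -0.64 to 1.06, against -0.34 to 0.24 for the 10 genes. Of the 27 that were tested, none was differentially expressed with limma. Their median log2 fold change was 0.037, against -0.17 for all tested genes, with 15 higher and 12 lower. At an unadjusted p-value under 0.05, 5 were higher with Tec (2.09% of all tested genes were) and 3 were lower (16.5% of all tested genes). The higher ones were Myh7b (1.06, SE 0.29), Myot (0.62, SE 0.21), Myom2 (0.56, SE 0.15), Myh6 (0.51, SE 0.22) and Mylk3 (0.46, SE 0.12). The lower ones were Des (-0.64, SE 0.24), Pdlim5 (-0.52, SE 0.17) and Smyd1 (-0.32, SE 0.12). Their limma adjusted p-values lay between 0.201 and 0.268. After the median of ratios 7 were higher and 0 lower (7.56% and 7.90% of all tested genes), while quantile normalization gave 8 and 2 (8.32% and 7.89%). Within the 3 libraries with low atrial markers 1 of the 27 was higher and 0 were lower (1.98% and 6.52% of all tested genes), and within the 3 with high ones 5 and 3 (5.45% and 20.8%).

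Several of these genes can be placed by their roles. Myom2, which encodes myomesin 2 of the M-band, was at 53.5, 40.5 and 43.0 FPKM without Tec and at 64.0, 78.3 and 61.5 FPKM with Tec. Mylk3, the cardiac kinase that phosphorylates the regulatory light chain Myl2, was at 75.0, 65.8 and 73.5 FPKM against 88.5, 107 and 101 FPKM. In both genes every treated library lay above every Ang II library. Of the 27 other sarcomere genes tested, 4 were separated in this direction and 3 in the opposite one. Among all tested genes these shares were 2.9% and 18.9%. Des, which encodes the intermediate filament desmin, was at 560.16, 702 and 361 FPKM against 381, 309 and 319 FPKM, and overlapped through Ang II replicate 3.

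The myosin heavy chains, the motors that the light chains and Mybpc3 attach to, differed among themselves. Myh6, the alpha chain of the adult mouse heart, was at 971, 678 and 1153 FPKM without Tec and at 1285, 1491 and 1137 FPKM with Tec (limma adjusted p-value 0.268). Myh7, the beta chain of the fetal and stressed heart, was at 156, 86.1 and 48.2 FPKM and at 68.7, 62.6 and 44.0 FPKM (log2 fold change -0.59, SE 0.40, limma adjusted p-value 0.411). The ratio of Myh6 to Myh7 was 6.21, 7.88 and 23.9 without Tec and 18.7, 23.8 and 25.8 with Tec, so Ang II replicate 3 stood among the treated hearts (exact permutation p = 0.3).

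**Figure D5:**
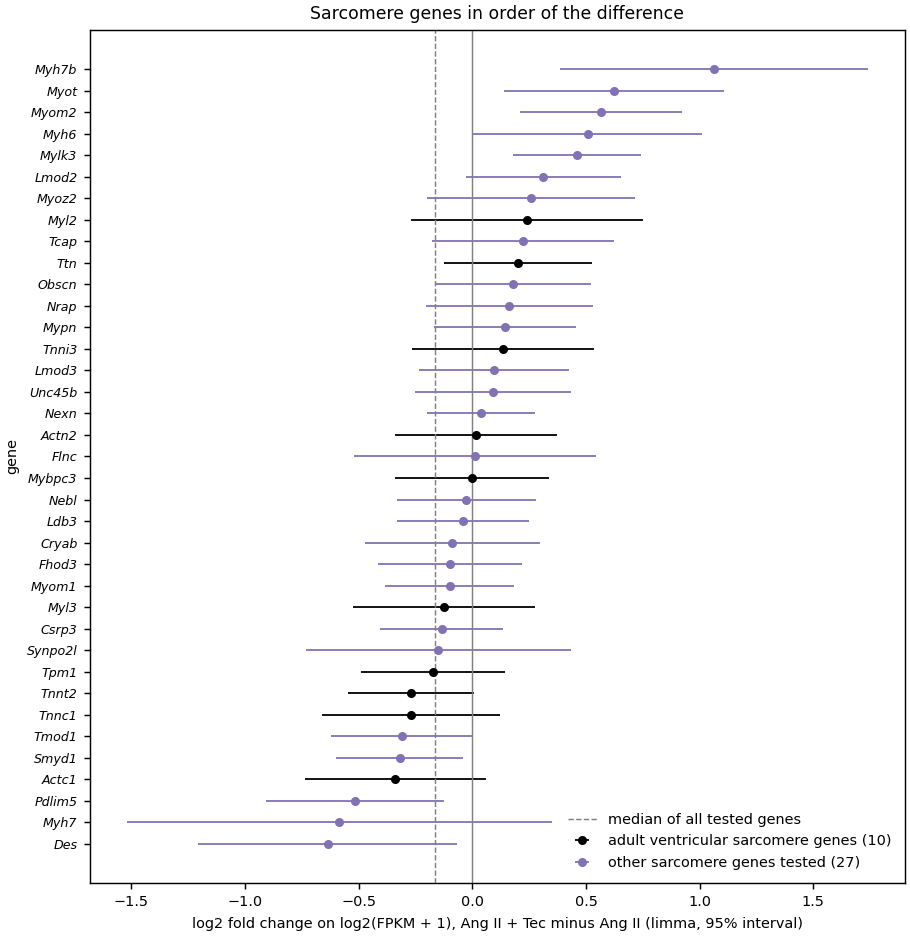
Log2 fold change on log2(FPKM + 1), Ang II + Tec minus Ang II, with limma 95% intervals, for the 10 adult ventricular sarcomere genes (black) and the 27 other sarcomere genes tested (purple), in order of size. The dashed line is the median of all tested genes, -0.17. The black points lie between -0.34 and 0.24, inside the range of the purple ones, from -0.64 to 1.06.

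Markers of several other cell types also differed between libraries, and their part in the differences above was not tested. The 10 fibroblast markers summed to 937, 1210.1 and 226 FPKM without Tec and to 180.2, 310.2 and 209 FPKM with Tec. The 9 macrophage markers summed to 286 to 551 FPKM without Tec and to 194 to 212 FPKM with Tec, with 7 of the 9 not overlapping, all of them lower with Tec, as were 18.9% of all tested genes. The 8 endothelial markers summed to 114 to 121 FPKM against 99.9 to 109 FPKM. Of the fast skeletal muscle list, Myh1 and Myh2, which encode its defining myosins, were at 0 to 0.02 FPKM in all 6 libraries, and the 10 genes of that list in the table summed to 7.74 to 57.6 FPKM. Of its 6 tested genes, 2 were differentially expressed, both higher with Tec, namely Atp2a1, the calcium pump of fast muscle (log2 fold change 2.90, SE 0.11, limma adjusted p-value 2.5e-04), and Mylpf, its regulatory light chain (log2 fold change 1.80, SE 0.15, limma adjusted p-value 0.0142). Atp2a1 was at 0.07 to 0.10 FPKM without Tec and at 6.30 to 7.51 FPKM with Tec. The smooth muscle and pericyte list (7 tested genes), the adipocyte list (3 tested of 5) and the erythroid list (5 tested) had 0 genes at an unadjusted limma p-value under 0.05, against 18.6% of all tested genes. The adipocyte genes summed to 12.35, 34.5 and 0.92 FPKM without Tec and to 0.23, 80.5 and 2.65 FPKM with Tec. Their sums were thus highest in the libraries with high atrial markers. The erythroid genes summed to 248 to 1018 FPKM without Tec and to 147 to 526 FPKM with Tec. Of the 18 other cardiomyocyte genes, 9 were higher and 9 lower with Tec, with a median log2 fold change of -0.014.

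Genes outside the list whose levels followed the mean profile of the 10 genes most closely were sought among 2917 genes with a mean of at least 10 FPKM, by the root mean square distance of their centred log2(FPKM + 1) values over the 6 libraries. The closest were Ndufb2 (0.045), Phb2 (0.046), Pebp1 (0.046), Asb8 (0.046) and C1qbp (0.047). The mean profile itself was shallow. It stood at 0.13, -0.11 and 0.068 around its mean without Tec and at 0.088, -0.098 and -0.079 with Tec, so that replicate 2 was the lowest of both groups.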

How the data were processed

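Heart RNA of 6 mice, 3 with Ang II alone and 3 with added Tec, was poly(A)-selected per the labels and sequenced. Cutadapt and FastQC served for trimming and quality control, and the authors deposited 1 FPKM value for each of 30914 genes and 6 libraries. The submitters' processing notes name HISAT2 2.0, StringTie 1.3.0, Bowtie 0.12.2 and mm8, without roles, but 26777 of the 30832 genes (86.8%) that the table and GENCODE M21 share have the same coordinates on GRCm38, 7 of the 10 sarcomere genes among them. FPKM keep no read totals. Low values gave no common step (the most filled step held 5.07% to 11.5% of 46 to 138 low genes), so the depth is unknown. Errors come from the spread between mice, which limma moderated over all tested genes.

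Genes with at least 0.5 FPKM in at least 3 libraries (13089) were fitted on log2(FPKM + 1) with limma 3.58.1 in R 4.3.3 (eBayes with trend, no block, Benjamini-Hochberg over all tested genes). This scale understates changes of low genes. Exact permutation tests used SciPy 1.17.1. The fit was tested on simulated data with known changes. The named genes are the 10 sarcomere genes, the partners in 8 isoform pairs, the 2 highest and 2 lowest tested genes of the partner and the other sarcomere lists, the 5 genes closest in profile, and markers that show a list. Genes past an unadjusted p-value of 0.05 in these lists were named after their values were seen. The members and lists were chosen with earlier results of these data known. Alternatives changed the pseudocount, filter, scaling, block, variance trend and library weights, and left out each library. A fit with the atrial marker level, fits on 3 libraries each and the ratios between the 10 genes were added after seeing the data.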

Additional observations from a re-analysis of the deposited data

How the results depend on the processing

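None of the 10 sarcomere genes was differentially expressed under any of 18 alternatives, and their lowest limma adjusted p-value was 0.0502 (Myl2, with library weights). The number of them at an unadjusted p-value under 0.05, 0 with all libraries, was 6 after quantile normalization (16.2% of all tested genes), 3 in the libraries with high atrial markers (26.2%), 2 with library weights (46.4%), and 1 after the median of ratios (15.5%), with the replicate block (25.3%), without the variance trend (18.7%) and with the atrial covariate (26.1%). It ranged from 0 to 3 when 1 library was left out, 3 without Ang II replicate 3 (Tnnt2, Tnni3 and Actc1, against 43.7% of all tested genes) and 1 without Ang II + Tec replicate 1 (Tnnc1, against 9.46%). Their median log2 fold change moved from -0.063 to 0.18 with the median of ratios, to -0.22 with quantile normalization, and ranged from -0.16 to -0.0062 without 1 library. Of all tested genes, 21 were differentially expressed, 3 without a filter, 12 with a filter at 5 FPKM, 522 with library weights (whose estimation did not fully converge), 0 in the libraries with low atrial markers (1112 at an unadjusted p-value under 0.05) and 47 in those with high ones. Without 1 library the number ran from 2 (without Ang II + Tec replicate 2) to 557 (without Ang II replicate 3). Dropping Ang II replicate 1 left 3 and dropping replicate 2 left 7, while dropping Ang II + Tec replicate 1 left 4 and dropping replicate 3 left 3. The cause of these moves was not tested.

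Signs turned for Myl3 (0.12 after the median of ratios, 0.046 with library weights), Tpm1 (0.071 after the median of ratios), Tnni3 (-0.16 after quantile normalization, -0.17 in the low-marker libraries) and Ttn (-0.040 in the low-marker libraries). Mybpc3 and Actn2, near 0 with all libraries, turned as well. Mybpc3 was at 0.24 after the median of ratios, 0.030 without mitochondrial genes in the sum, 0.031 with library weights, 0.070 in the low-marker libraries, and -0.089 to 0.098 without 1 library. Actn2 was at -0.049 with library weights, -0.017 in the high-marker libraries and -0.083 to 0.12 without 1 library. Myl2, Tnnt2, Tnnc1 and Actc1 kept their direction under each of the 18 alternatives. Without 1 library, Myl2 ranged from 0.052 (Ang II replicate 2 left out) to 0.40 (Ang II replicate 3), Myl3 from -0.24 (Ang II replicate 2) to -0.015 (Ang II + Tec replicate 2), Tnni3 from 0.022 (Ang II replicate 2) to 0.30 (Ang II replicate 3), Tnnc1 from -0.41 (Ang II + Tec replicate 1) to -0.18 (Ang II + Tec replicate 2), Tpm1 from -0.25 (Ang II + Tec replicate 1) to -0.071 (Ang II + Tec replicate 2), Ttn from 0.10 (Ang II + Tec replicate 2) to 0.28 (Ang II + Tec replicate 3), and Actc1 from -0.44 (Ang II replicate 3) to -0.22 (Ang II replicate 1). Isoform ratios turned for Tnni3 to Tnni1 (-0.24 with a pseudocount of 0.1, -0.10 to 0.44 without 1 library), Tnnt2 to Tnnt1 (-0.30 to 0.33), Actc1 to Acta1 (-1.10 to 0.13) and Tpm1 to Tpm2 (-0.19 to 0.96), and the other 4 kept their direction, but Myl2 to Myl7 ran from 0.16 to 5.41, Myl3 to Myl4 from 0.58 to 4.71, Actn2 to Actn1 from 0.26 to 1.14 and Myh6 to Myh7 from 0.71 to 1.68. The labels tie the replicate numbers to no shared batch, and no pairing was assumed. Same-numbered deviations correlated at -0.039, 0.43 and 0.38, 4 of 6 libraries correlated best with their own number, and the replicate block gave 22 differentially expressed genes.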
